A study of Caenorhabditis elegans with 4 samples.

Results

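Worms fed Bacillus subtilis PY79 were compared with worms fed Escherichia coli OP50 on day 4 of adulthood, across all genes with enough reads. The transcript of a gene that collected most reads in the 4 libraries together stood for the gene, which was included when that transcript had 10 or more reads in either day 4 library. This rule kept 8410 of the 17096 genes in the table. A count of 10 or more in any of the 4 libraries was found for 9032 genes, and the same rule applied to the day 13 libraries keeps 8028.

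All worms were Caenorhabditis elegans of the wild-type N2 strain, so the groups differ in food and age and in no allele. Synchronized populations were raised from the first larval stage on OP50, the standard laboratory food, or on PY79, and adults were washed over nylon mesh at intervals of 2 days from day 2 of adulthood. In the study the B. subtilis diet served as another long-lived condition beside worms with extra ELT-2, a GATA factor that directs transcription in intestinal cells. Whole worms were taken up in TRIzol, poly(A) RNA was selected, and barcoded libraries of transcript 3' ends were pooled for sequencing. FUDR in the plates, which prevents progeny, is stated in the methods for comparisons of young and old transcriptomes in general, whereas the culture of the worms on both diets is described without it.

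With 1 library for each diet and day, the day 4 comparison sets 2 libraries side by side. It has no replicate, so no p-value across genes was computed from it, and diet cannot be told apart from any other difference between the 2 populations or their libraries. A gene was called higher or lower on PY79 when the scaled ratio reached 2-fold and 1 lay outside its 95% interval, an exact Clopper-Pearson interval for the division of the reads between both libraries. These intervals cover counting error only, since each group has 1 library. PCR copies were not marked by molecular identifiers, so reads need not be independent and the intervals may be too narrow even for counting error. A gene is said to have risen or fallen only where it passed a test of diet over both days by edgeR's quasi-likelihood method (adjusted p under 0.05), which uses the day 13 libraries as well as the day 4 ones and is therefore not independent of the day 4 ratios.

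Bacteria are both the food of C. elegans and the microbes that its intestine meets. Intestinal cells digest them with secreted proteases, lipases and lysozymes, store fat, and make the yolk proteins that feed the oocytes. Lysozymes cut peptidoglycan, the wall polymer that is thick in Gram-positive bacteria such as B. subtilis and thin in Gram-negative ones such as E. coli. Saposin-like proteins permeabilize membranes, and C-type lectins bind sugars. Most digestive and many defence genes of this tissue are under the control of ELT-2.

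The chosen transcripts held 28650595 reads for OP50 day 4 and 4838114 for PY79 day 4, a ratio of 5.92. As the libraries hold transcript 3' ends, levels were not divided by transcript length, and a level compared between genes is that of transcript ends. The OP50 library was also the deeper at day 13 (28552961 against 4469802 reads), so diet and depth cannot be told apart at either day. After scaling by TMM over the 4 libraries, 10 reads correspond to 0.379 CPM (counts in 1e6 reads of the scaled library) on OP50 and 1.85 CPM on PY79. In all, 2930 genes reached 10 reads on OP50 alone and 144 on PY79 alone, and a gene without PY79 reads needed 30 OP50 reads to be called lower. Ribosomal protein genes took 57.5% of the reads on OP50 and 65.0% on PY79. Among the 10 genes with most reads 4 were shared by both libraries, namely rps-25, rps-16, rps-3 and the small heat shock gene sip-1. The day 4 ratio of every gene moves by 0.27 on the log2 scale with scaling to total reads, by -0.14 with DESeq2 size factors, by 0.08 with TMM on the day 4 libraries alone, and by 0.73 with total reads less the 3% most highly expressed genes.

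Across the 8410 genes 2176 were higher on PY79 (25.9%) and 2117 were lower (25.2%), and 4117 met neither call. The median log2 ratio of PY79 over OP50 was -0.13, with quartiles of -1.50 and 1.14. Called genes with ratios of at least 10-fold numbered 192 higher and 338 lower. When the interval bound nearest to 1 was required to reach 10-fold, 43 higher and 96 lower genes remained. Among the 4741 genes that reached 10 reads in all 4 libraries, 60.5% met the call between diets at day 4 and 57.3% at day 13, against 26.0% between ages on OP50 and 14.0% between ages on PY79. The interquartile range of the log2 ratio over the same genes was 2.49 and 2.23 for diet and 1.11 and 0.77 for age, in that order. The diet ratios were thus spread more widely than the age ratios measured in the same libraries.

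The diet ratio differed with the level of a gene. Genes with a mean day 4 level of 2 to 5 CPM had a median log2 ratio of 0.62, and 41.0% of them were higher on PY79. In the range of 50 to 100 CPM the median was -1.27, and 61.2% of the genes were lower. Above 1000 CPM, where most ribosomal protein genes lie, the median was -0.32. Transcript length moved with the ratio too, from a median of -1.32 for transcripts of up to 300 nt to 0.06 for those over 3000 nt. The diet ratio at day 13 showed the same course over level, with medians of 0.49 and -1.47 in the 2 to 5 and 50 to 100 CPM ranges, and shares no library with that at day 4. The part of level and length in single genes was not tested. Each call was therefore repeated after subtraction of a running median over 201 genes of similar level, for the 4902 genes with a mean of at least 2 CPM, an alternative that was chosen after the data had been seen. In these genes 1363 were higher and 1585 lower as measured, and 1263 (25.8%) and 1253 (25.6%) with the trend taken out. Of these 1024 and 1058 were called both ways and 0 in opposite directions. An opposite call needs a larger shift than the medians over level, from 0.62 to -1.27, so the 0 carries no support.

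**Figure D1:**
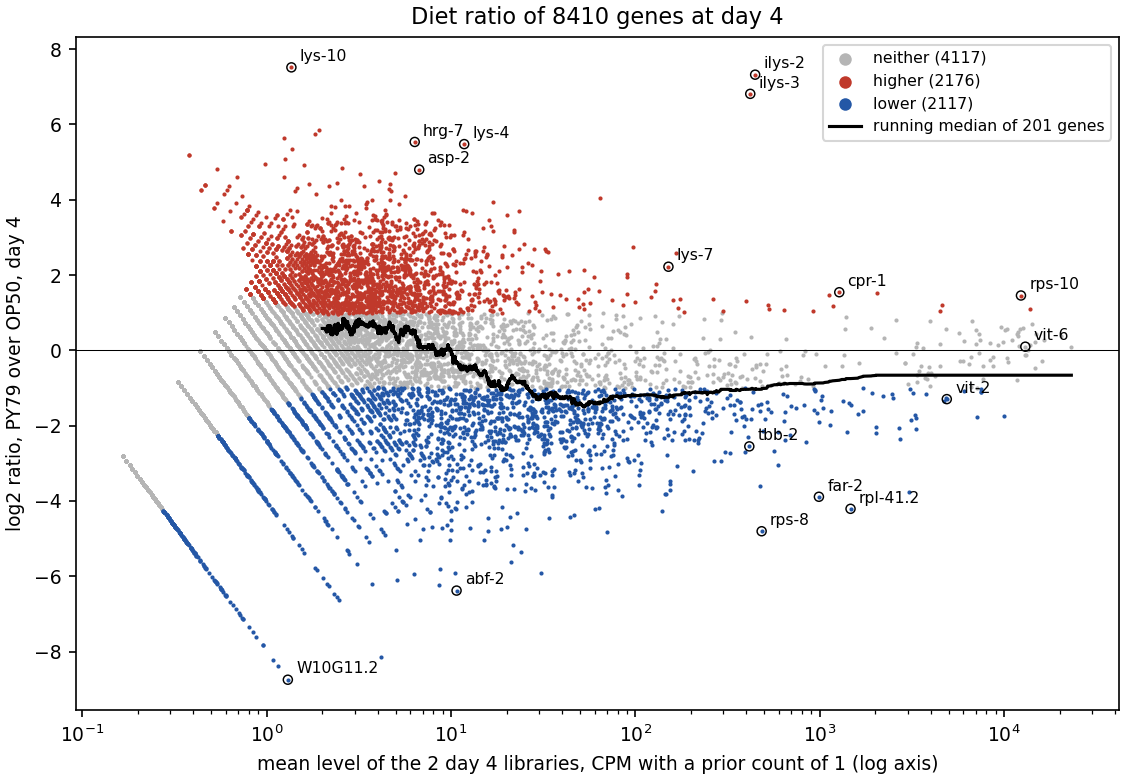
Log2 ratio of PY79 over OP50 at day 4 (y axis) against the mean level in the 2 libraries (x axis, CPM, log scale) for each of 8410 genes, with genes called higher in red, lower in blue and neither in grey, and the running median of 201 genes in black. The running median lies above 0 at 2 to 5 CPM and below -1 around 50 to 100 CPM, while ilys-2 and ilys-3 stand at ratios of 7.32 and 6.81 far above it, and the diagonal row of points at the lower left, down to W10G11.2, holds genes with 0 PY79 reads whose ratio is set by the added read.

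**Figure D2:**
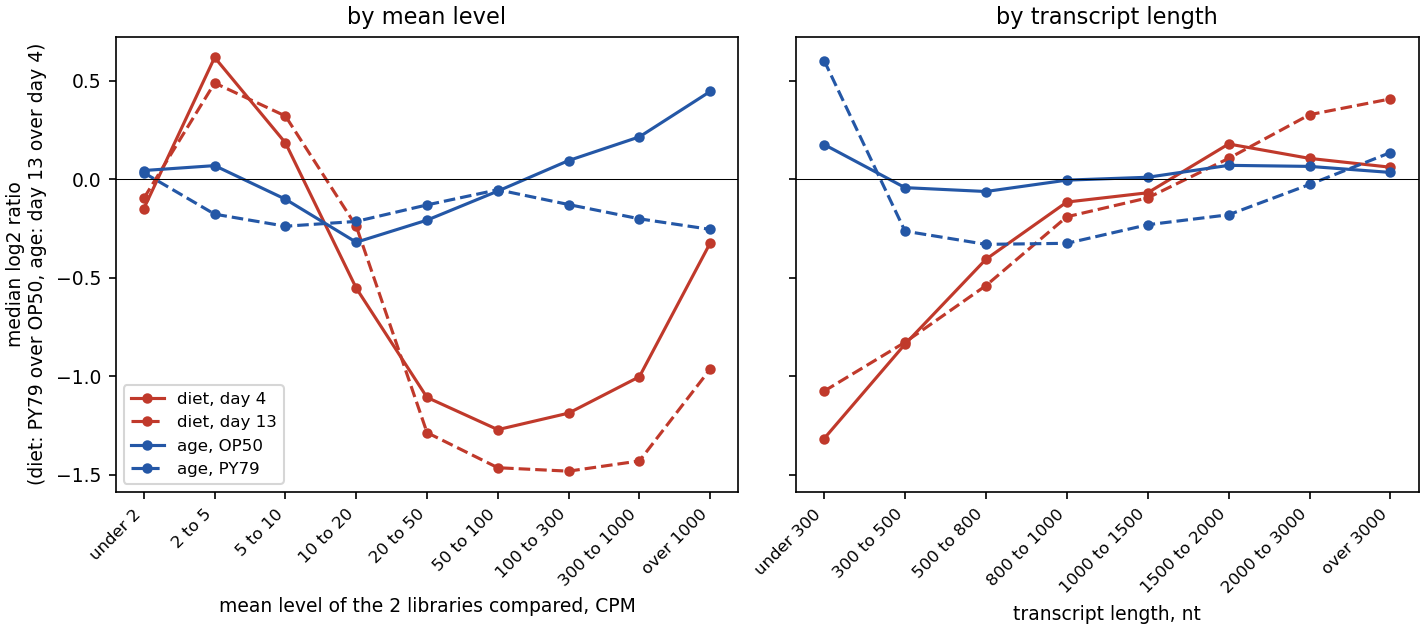
Median log2 ratio (y axis) of genes grouped by mean level in CPM (left) and by transcript length in nt (right), for the diet ratio at each day (red, PY79 over OP50) and the age ratio on each diet (blue, day 13 over day 4). The diet medians run from 0.62 to -1.27 at day 4 over the levels above 2 CPM and follow a like course at day 13, whereas the age medians by level stay between -0.32 and 0.45.

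Lysozyme genes were the first 4 of all genes higher on B. subtilis when ranked by the interval bound nearest to 1. Of 16 known lysozyme genes 10 had enough reads. Of these 6 were higher on PY79 (60.0%, beside 25.9% of all genes) and none was lower. Their median log2 ratio was 2.35 beside -0.13 for all genes. The invertebrate-type lysozyme ilys-2 (C45G7.2) had 931 reads on OP50 and 30441 on PY79, although the PY79 library was the shallower. That corresponds to 35.2 and 5638 CPM and a 160-fold higher level (interval 149.9 to 171). Its neighbour ilys-3 (C45G7.3) had 1045 and 24005 reads and was 112-fold higher (106 to 120). Both thus stood at moderate levels on OP50 and at very high ones on PY79, in the range of the major adult collagens.

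The protist-type lysozymes gave ratios that ranged more widely. lys-4 had 45 and 424 reads, a 46.1-fold higher level on PY79 (33.9 to 64.2). lys-10 had 1 read on OP50 and 99 on PY79, a ratio of 484 with a counting interval of 85.0 to 19326. lys-1 was 5.61-fold higher (211 and 242 reads) and lys-7, a target of insulin signaling, 4.66-fold higher (1847 and 1760 reads). Not every lysozyme met the call. ilys-5, the most abundant lysozyme on OP50, had 146953 and 35489 reads and a log2 ratio of 0.24. lys-2 and lys-8 had log2 ratios of 0.49 and -0.85, and ilys-4 had 16 and 0 reads, too few for a call. With the level trend taken out 5 of 8 lysozymes with a mean of at least 2 CPM stayed higher. In edgeR 7 lysozyme genes rose, beside 14.8% of all genes tested.

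The differences in ilys-2 and ilys-3 were far smaller in older worms. At day 13 the reads were 32479 on OP50 and 5150 on PY79 for ilys-2, and 62087 and 22691 for ilys-3. The day 13 log2 ratios were -0.80 and 0.41, neither of which met the call. The OP50 levels of ilys-2 and ilys-3 had reached 1532 and 2928 CPM by then. Their PY79 levels were 881 and 3880 CPM at day 13, against 5638 and 4446 CPM at day 4. By contrast, lys-7 had a day 13 log2 ratio of 4.10 and lys-1 of 3.34. ilys-2 and ilys-3 still rose in edgeR, whose spread was taken from a trend over all genes, so that a gene with a large ratio at 1 day alone can pass.

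**Figure D3:**
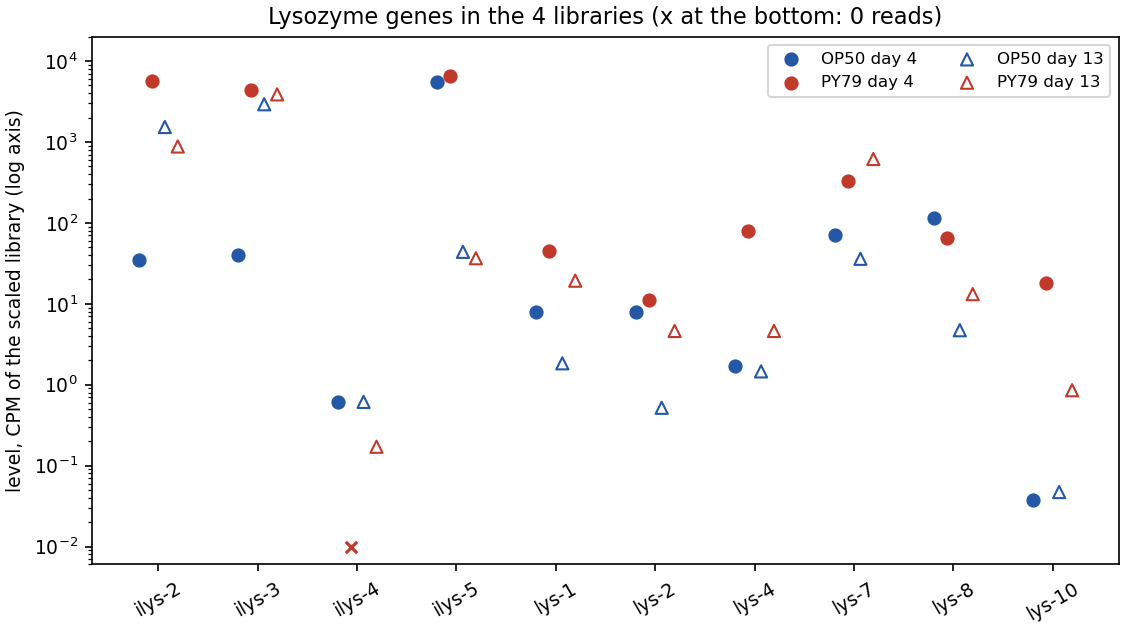
Levels of 10 lysozyme genes (y axis, CPM of the scaled library, log scale) in the day 4 (filled circles) and day 13 (open triangles) libraries of worms fed OP50 (blue) or PY79 (red), with a cross for 0 reads. At day 4 ilys-2 stands at 35.2 CPM on OP50 and 5638 CPM on PY79, and the red circle lies above the blue one for 8 of the 10 genes.

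The 15 highest genes, ranked by the interval bound nearest to 1, held genes of several roles besides the lysozymes. hrg-7, a secreted aspartyl protease homolog that signals heme status, had 23 and 233 reads and was 49.6-fold higher on PY79 (32.2 to 79.8). asp-2, an aspartyl protease, had 32 and 191 reads (29.2-fold, 20.0 to 43.9). The lysosomal lipase lipl-1 had 4 and 39 reads (47.7-fold, 17.2 to 184). adh-1, an alcohol dehydrogenase, had 4 and 47 reads (57.5-fold, 21.0 to 220). These OP50 counts are small, and the intervals are wide accordingly. The set also held the lectin clec-52 (5 and 78 reads), the saposin-like gene spp-18 (11 and 74), the small peptide gene nspc-1 (6 and 47), C30G12.2 (24 and 137), F01D5.3 (5 and 72), F42A10.6 (3 and 47) and rncs-1 (15 and 87), a noncoding RNA known to be induced by starvation. All 15 genes of this set, ilys-2, ilys-3, lys-4 and lys-10 included, rose in edgeR. They were chosen by the day 4 reads that edgeR uses too, so passing there is no separate support. Of them 6 were also called higher at day 13, none was called lower there, and 5 overlap an exon of another gene. However, lys-10, F01D5.3, F42A10.6, adh-1 and lipl-1 had too few reads at day 13 for a call in either direction.

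The other defence families had members on both sides. Among 14 saposin-like genes 5 were higher and 6 lower (35.7% and 42.9%, beside 25.9% and 25.2% of all genes). Their median log2 ratio of 0.09 turned negative with DESeq2 size factors. The higher members were among the less abundant ones and most lower members among the abundant ones. spp-2 had 116 and 186 reads (log2 ratio 2.95), whereas spp-14 had 145242 and 7162 reads and was 4.14-fold lower on PY79 (4.05 to 4.24). spp-5 had 33244 and 1502 reads (4.52-fold lower). With the trend over level removed 5 saposin-like genes were higher and 3 lower. C-type lectins gave 11 higher and 15 lower of 57 genes (19.3% and 26.3%, near the shares of all genes), with a median of -0.45 that turned positive when the top 3% of genes were left out of the scaling. clec-91 had 152 and 379 reads (12.2-fold higher), and clec-63 had 12158 and 800 reads (3.11-fold lower, 2.89 to 3.34).

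Intestinal immune effectors, the genes known to be induced by pathogens, had 6 higher and 3 lower members of 14 (42.9% and 21.4%, beside 25.9% and 25.2% of all genes). Their median log2 ratio was 0.64. With the level trend taken out 3 of 9 were higher and 3 lower, and the median was -0.14. irg-3 was 2.17-fold higher on PY79 with 3069 and 1358 reads, and sysm-1, a target of the p38 immune pathway, 3.11-fold higher with 348 and 221 reads. dod-19 was 4.56-fold lower with 13002 and 583 reads. The antibacterial peptide gene abf-2 showed the second largest interval bound among all lower genes, with 2580 and 6 reads (87.9-fold lower, 40.3 to 240). Antimicrobial peptides of the epidermis, the nlp and cnc genes, formed a group in which 11 of 16 were lower and none higher (68.8% lower, median -1.35). cnc-4 had 8437 and 191 reads and was 9.03-fold lower (7.82 to 10.5), while nlp-27, the most abundant of them, had 48173 and 7864 reads and a log2 ratio of -0.32. Their median level was 117 CPM, a range in which the median gene was lower as well, and 3 of 15 were lower with the trend taken out, and 4 of 16 without the top 3% of genes in the scaling. Only cnc-10 of this list fell in edgeR.

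Genes that depend on ELT-2 were examined in the classes that the study defined from RNAi of elt-2 in larvae, and thus from other samples. In the General Intestinal class, which responded in both larval stages, 32 of 69 genes were higher on PY79 (46.4%) and 13 lower (18.8%), with a median log2 ratio of 0.83. The corresponding shares of all genes were the 25.9% and 25.2% given above. Besides ilys-2, lys-4, asp-2, adh-1 and spp-18 the higher members included asp-14, an aspartyl protease (11 and 53 reads, 23.6-fold), and scav-1, a scavenger receptor homolog (2 and 10 reads, a ratio of 24.5 with an interval of 5.21 to 230). Some abundant members stood on the lower side, whereas ilys-2 was at 5638 CPM on PY79. The summed level of the class was 9423 CPM on OP50 and 10726 CPM on PY79. The metallothionein mtl-2 had 88463 and 7836 reads (2.31-fold lower) and the lysosomal protease asp-3 had 19396 and 1344 reads (log2 ratio -1.56). With the trend over level removed 20 of 49 genes of the class were higher and 5 lower. In edgeR 26 rose and 10 fell.

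The Adult Function class, which responded in the fourth larval stage alone, had 9 higher and 7 lower genes of 33, with a median of 0.12 that turned negative with DESeq2 size factors. The Intestinal Establishment class, which responded in the first larval stage alone, had 11 higher and 16 lower of 52 (median -0.37, positive when the top 3% of genes were left out of the scaling). These shares, 27.3% and 21.2% in the former and 21.2% and 30.8% in the latter, were near those of all genes. The cysteine protease cpr-1 was the most abundant higher gene of the latter, with 19745 and 11756 reads (2.91-fold, 2.85 to 2.98). hmit-1.1, an inositol transporter of the former, had 589 and 15 reads (log2 ratio -2.98). elt-2 itself had 185 and 10 reads, a 3.78-fold lower level on PY79 with a wide interval of 2.01 to 8.02, and it did not pass in edgeR (adjusted p = 0.12).

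Defining markers of the intestine were present in both libraries, though few reads fell on several of them. Of 12 markers 10 had enough reads, 6 were higher and 3 lower. The peptide transporter pept-1 had 7 and 11 reads and the intermediate filament gene ifb-2 11 and 12. Their median log2 ratio was 1.73, and it was -1.11 over the 4 markers of at least 2 CPM with the level trend taken out, so that the markers gave no single direction. Their summed level of 3366 CPM on OP50 and 1478 CPM on PY79 was nearly that of mtl-2 alone, 3348 and 1451 CPM.

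Yolk proteins were lower in 4 of 6 genes and higher in none (66.7% lower, beside 25.2% of all genes, median -1.26). vit-6, the most abundant, had 332862 and 72761 reads and a log2 ratio of 0.10. vit-2 had 202240 and 16840 reads and was 2.45-fold lower (2.42 to 2.49), and vit-3, vit-4 and vit-5 were lower by similar factors, with log2 ratios of -1.23, -1.44 and -1.38, though these genes are near-identical copies whose single counts are uncertain. None of the 6 was called with the level trend taken out, nor with the scaling without the top 3% of genes. Intestinal proteases gave 4 higher and 6 lower of 18 (22.2% and 33.3%, beside 25.9% and 25.2% of all genes). cpr-1 and asp-2 were on the higher side, and cpz-1 (7108 and 211 reads, 6.88-fold lower) and the cathepsin L gene cpl-1 (17631 and 995 reads, 3.62-fold lower) on the lower side.

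Several lists of metabolic genes had more higher than lower members, where 25.9% of all genes were higher and 25.2% lower. In the methionine and one-carbon cycle 7 of 12 genes were higher and 1 lower, with a median of 1.62. sams-4, an S-adenosylmethionine synthetase, had 22 and 53 reads (11.8-fold higher, 7.05 to 20.4). cth-2, a cystathionine lyase, had 51 and 115 reads (log2 ratio 3.42), and the serine hydroxymethyltransferase mel-32 had 141 and 182 reads (6.32-fold, 5.04 to 7.93). sams-1, the best known synthetase of the family, had 201 and 30 reads and a log2 ratio of -0.45. The single lower gene was cbs-2, a cystathionine beta-synthase homolog with 70 and 3 reads. With the trend taken out 7 of 8 genes were higher. In edgeR 5 rose and 1 fell.

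Propionate breakdown, which in worms is tuned by vitamin B12 from the bacteria, had 6 higher and 1 lower of 11 genes (median 1.34). With the level trend taken out 3 of 7 were higher and 0 lower. mmaa-1, which loads B12 onto methylmalonyl-CoA mutase, had 35 and 53 reads (7.41-fold higher, 4.75 to 11.7). The mutase gene mmcm-1 itself had 784 and 61 reads (2.63-fold lower). acdh-1, the widely used reporter of low B12, had 30 and 3 reads (log2 ratio -0.95, no call).

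Fatty acid synthesis had 9 higher and 3 lower of 18 genes (median 0.99). elo-5, an elongase of branched-chain fatty acids, had 190 and 356 reads and was 9.17-fold higher on PY79. elo-2 and the desaturase fat-2 had log2 ratios of 3.15 and 1.63. fat-7, a stearoyl desaturase, had 5 and 17 reads (16.6-fold, 5.89 to 57.7). Its relative fat-5 had 1389 and 54 reads and was 5.26-fold lower (4.01 to 7.03), and fat-6 had a log2 ratio of 0.65. These 3 desaturases thus gave calls of different kinds. With the trend taken out 9 of 15 genes were higher and 2 lower.

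Lipid-binding proteins showed the reverse balance, with 4 higher and 7 lower of 13 and a median of -1.04. far-2, a secreted fatty acid and retinol binding protein, had 100568 and 1388 reads and was 14.8-fold lower (14.0 to 15.6). far-1 was lower as well, with a log2 ratio of -1.99. lbp-6 had 29 and 60 reads (log2 ratio 3.27) and lbp-2 1209 and 947 reads (3.83-fold higher). Fatty acid breakdown was divided, with 6 higher and 5 lower of 15. The lipase atgl-1 had 37 and 40 reads (5.29-fold higher) and the thiolase kat-1 874 and 20 reads (8.93-fold lower).

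In glycolysis 7 genes were higher and 6 lower of 18 (38.9% and 33.3%, beside 25.9% and 25.2% of all genes), with a median of 0.87. tpi-1 and gpi-1, which encode triosephosphate isomerase and glucose-6-phosphate isomerase, each had 48 and 68 reads (6.93-fold higher). aldo-2, the abundant aldolase, had 26297 and 2919 reads and a log2 ratio of -0.88. ldh-1, lactate dehydrogenase, had 267 and 6 reads (9.09-fold lower, 4.12 to 25.0). With the trend removed 5 genes were higher and 2 lower. Respiratory chain subunits were split too, with 12 higher and 14 lower of 41 (29.3% and 34.1%). Their median of -0.17 turned positive with scaling to total reads, with or without the top 3%. Within this list the extremes were atp-3, an ATP synthase subunit with 291 and 387 reads (6.51-fold higher), and cox-5B, a cytochrome oxidase subunit with 9795 and 71 reads (28.2-fold lower, 22.3 to 36.1).

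The vacuolar proton pump, which acidifies lysosomes and other compartments, had 11 higher and no lower gene of 19 (57.9% higher, median 1.44). vha-17 had 82 and 148 reads (8.83-fold higher, 6.70 to 11.7) and vha-9 234 and 276 reads (5.77-fold, 4.83 to 6.90). vha-13, which has the most reads of the list, had 980 and 123 reads and a log2 ratio of -0.70, though another gene overlaps it on the same strand. Subunits of the same complex therefore had ratios that differed more than their counting intervals. With the trend removed 7 of 16 stayed higher, and 5 rose in edgeR. Lysosome and autophagy genes had 5 higher and 1 lower of 17 (29.4% and 5.9%, beside 25.9% and 25.2% of all genes). With the trend removed 6 of 11 were higher and 1 lower. The autophagy initiator bec-1 had 26 and 35 reads (6.59-fold higher).

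Chaperones of the endoplasmic reticulum and mitochondria had 8 lower and 1 higher of 12 genes (66.7% and 8.3%, median -1.66). Of all genes 25.2% were lower and 25.9% higher. Calreticulin, crt-1, had 32469 and 1799 reads (3.69-fold lower, 3.52 to 3.87), and hsp-4, the BiP chaperone that reports on unfolded protein in the endoplasmic reticulum, had 1432 and 70 reads (4.18-fold lower). The mitochondrial chaperonin hsp-60 was the higher gene, with 225 and 186 reads (4.05-fold). Antioxidant enzymes had 7 lower and 2 higher of 11 (63.6% and 18.2%, median -1.59). prdx-2, a peroxiredoxin, had 23699 and 1634 reads (2.96-fold lower) and sod-1, the cytosolic superoxide dismutase, 11901 and 640 reads (3.80-fold lower). sod-4, the extracellular form, had 5 and 12 reads (11.7-fold higher, 3.85 to 42.6). With the level trend taken out 3 of 12 chaperones were higher and 5 lower, and 1 of 9 antioxidant enzymes was higher and 2 lower. The shares of all genes were then 25.8% higher and 25.6% lower.

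Transcription factors linked to longevity or stress had 6 higher and 1 lower of 16 genes (37.5% and 6.25%, median 0.84), beside 25.9% and 25.2% of all genes. Their median level was 3.64 CPM, and 41.0% of all genes at 2 to 5 CPM were higher. With the level trend taken out 5 of 12 were higher and 1 lower. zip-2, a factor of the pathogen response, had 245 and 355 reads (7.09-fold higher, 6.01 to 8.38), though another gene overlaps it on the same strand. atfs-1, the factor of the mitochondrial unfolded protein response, had 47 and 68 reads (7.08-fold), and hsf-1, the heat shock factor, 36 and 32 reads (4.35-fold). daf-16 and skn-1 had 96 and 35 reads and 199 and 66 reads, with log2 ratios of 0.82 and 0.69 that met no call. All 6 higher genes rose in edgeR.

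Markers of other tissues differed between the libraries as well, and their part in the lists above was not tested. In whole worms fewer cells of a tissue and less RNA per cell cannot be told apart. Body muscle genes had 10 lower and 3 higher of 21 (47.6% and 14.3%, beside 25.2% and 25.9% of all genes). Their summed level was 1661 CPM on OP50 and 556 CPM on PY79. The counts were 5 lower and 4 higher with the scaling without the top 3% of genes, and 3 lower and 1 higher of 17 with the level trend taken out. pat-10, a troponin C, had 14301 and 208 reads (14.0-fold lower, 12.3 to 16.2), and tni-1, a troponin I, had 94 and 51 reads (log2 ratio 1.39). Neuropeptide and other neuronal genes had 18 lower and 7 higher of 35 (51.4% and 20.0%), and 11 lower and 8 higher without the top 3%. Among them 2 were at 0 reads in a day 4 library, and the summed levels were 261 and 112 CPM. flp-18 had 205 reads and 1 read, a ratio of 41.9 with an interval of 7.44 to 1663. The insulin-like gene ins-7 had 60 and 40 reads and was 3.26-fold higher. Cuticle collagens were nearly balanced in number (13 higher, 17 lower of 94, or 13.8% and 18.1%), but their summed level was 22572 CPM on OP50 and 30726 CPM on PY79. The 2 collagens with most reads on OP50, col-181 (110463 and 15454 reads) and col-122 (108609 and 11961 reads), had log2 ratios of -0.55 and -0.89 and met no call. The next, col-184 and col-106, were 2.05-fold and 2.29-fold higher.

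Germline and oocyte genes gave 9 higher and 10 lower of 40 (22.5% and 25.0%, near the 25.9% and 25.2% of all genes), with a median of 0.49. egg-3, needed for egg activation, had 34 and 125 reads (18.0-fold higher, 12.2 to 27.1), and the RNA-binding gene mex-3 had 796 and 631 reads (3.88-fold). The lower side held glh-1, a P granule helicase (6530 and 131 reads, 10.2-fold), the cold-shock domain gene cey-2 (26548 and 837 reads, 6.48-fold) and the eggshell proteoglycan gene cpg-2 (19453 and 522 reads, 7.62-fold). The count moved to 17 higher and 6 lower of 38 with the level trend taken out. Major sperm proteins had 7 lower and none higher of 20 (35.0% lower), and other sperm genes likewise 7 lower and none higher of 19 (36.8% lower). Their median transcript lengths were 384 and 324 nt, and 37.5% of all genes of 300 to 500 nt were lower. Without the top 3% of genes in the scaling 2 and 1 were lower, with 1 higher gene in each list. With the level trend taken out 6 of 10 and 5 of 10 were lower and none higher. Summed levels were low, 76.5 and 42.6 CPM for the major sperm proteins and 103 and 57.2 CPM for the other sperm genes. Early embryo genes, which mark progeny, reached 10 reads in 9 of 33 cases, with 2 higher and 2 lower and summed levels of 28.3 and 34.8 CPM.

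Histone genes were lower in most cases. Of 27 with enough reads 20 were lower and none higher (74.1% lower, beside 25.2% of all genes). The median log2 ratio was -2.79 with the added read, and -1.83 with the 8 members at 0 PY79 reads set at their bound. his-72, a variant histone H3, had 13418 and 502 reads (5.46-fold lower) and his-74 10334 and 305 reads (6.92-fold lower). Their number with the trend taken out was 14 lower of 16, and 24 fell in edgeR, beside 17.0% of all genes tested. Most histone mRNAs lack a poly(A) tail, and histone genes have near-identical copies, so their counts are uncertain. Small nuclear RNAs, which lack the tail as well, had 4 higher and 1 lower of 7, with summed levels of 10.6 and 16.3 CPM.

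**Figure D4:**
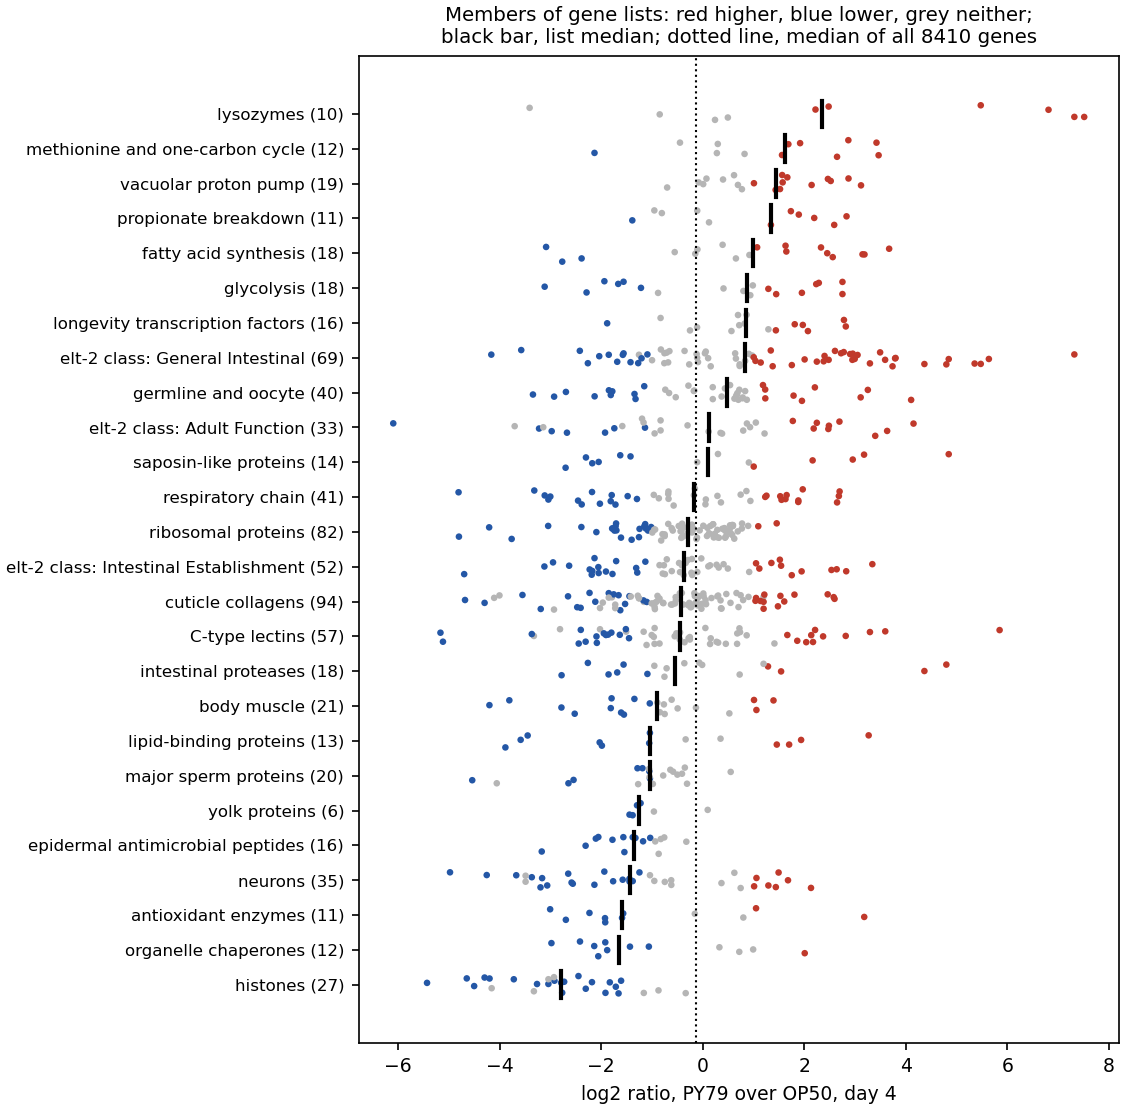
Log2 ratio of PY79 over OP50 at day 4 (x axis) of the members of 26 gene lists (y axis, number of tested members in brackets), with genes called higher in red, lower in blue and neither in grey, the list median as a black bar and the median of all 8410 genes, -0.13, as a dotted line. Among the lists drawn lysozymes lie highest with a median of 2.35 and histones lowest with -2.79 (-1.83 with genes at 0 reads set at their bound), and some grey points at very low ratios are genes with 0 PY79 reads and under 30 OP50 reads.

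Ribosomal protein genes, most of whose products share 1 complex, gave a measure of the spread among genes of like function. Of 82 genes 2 were higher and 21 lower (2.4% and 25.6%, beside 25.9% and 25.2% of all genes). The median log2 ratio was -0.28, which turned positive when the top 3% of genes were left out of the scaling. The balance of the calls depended on the setting, with 23 higher and 8 lower without the top 3%, and 20 higher and 11 lower with the level trend taken out. The ratios ran from -4.80 to 1.46, a 76.6-fold span. rps-8, the lowest, had 67533 and 494 reads (27.9-fold lower, 25.6 to 30.6). rpl-41.2 had 166771 and 1844 reads (18.5-fold lower) and rpl-27 297581 and 4474 reads (13.6-fold lower). On the other side rps-10 had 196811 and 110347 reads (2.74-fold higher) and rps-0 249496 and 108787 reads (2.13-fold higher).

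The same ribosomal genes were low at both days. rps-8 had a log2 ratio of -3.79 at day 13, rpl-41.2 of -4.89 and rpl-27 of -3.92. Across the 82 genes the diet ratios of the 2 days, which share no library, had a Pearson correlation of 0.919 and a Spearman correlation of 0.893. These points share the library, the depth and the base composition of each gene, and genes are not independent replicates. The interquartile range over these genes was 1.32 for diet at day 4 and 1.02 at day 13, against 0.52 for age on OP50 and 0.31 for age on PY79. Some ribosomal protein genes have near-identical copies, so that their single counts are uncertain.

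**Figure D5:**
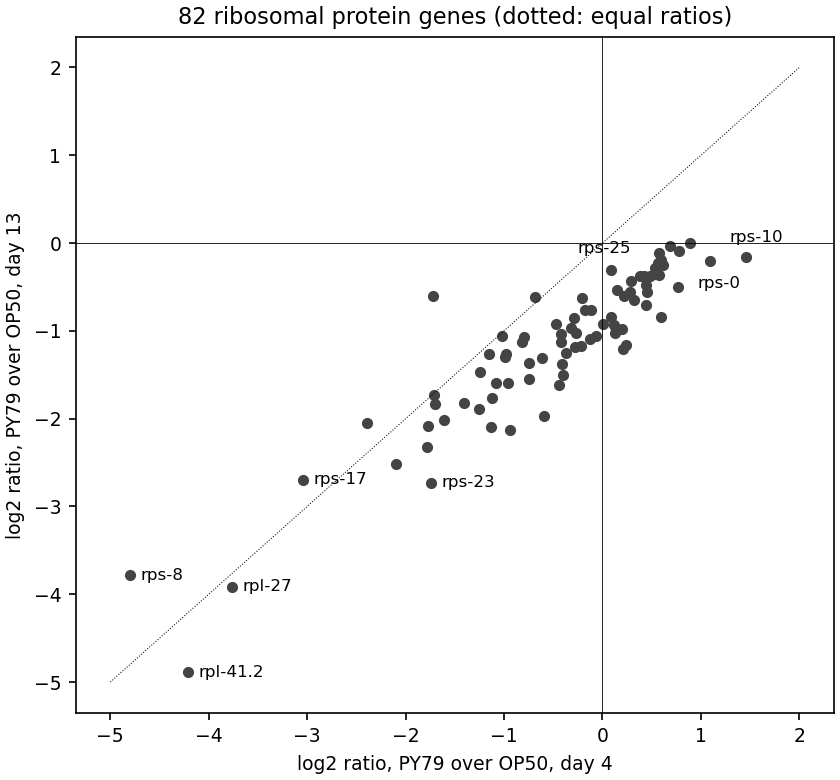
Log2 ratio of PY79 over OP50 at day 13 (y axis) against that at day 4 (x axis) for 82 ribosomal protein genes, with a dotted line where both are equal. The points run from rps-8 at -4.80 and rpl-41.2 at -4.21 up to rps-10 at 1.46 on the day 4 axis, and most lie under the dotted line, since the median is -0.28 at day 4 and -1.05 at day 13.

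The 15 lowest genes by the interval bound came from many functional groups, and abf-2 and rps-8 are the members already described. T07C4.12 had 1858 reads on OP50 and 1 on PY79, a ratio of 380 with an interval of 68.1 to 15005, but it overlaps another gene on the same strand. odc-1, ornithine decarboxylase and the entry enzyme of polyamine synthesis, had 1975 and 5 reads (80.7-fold lower, 34.5 to 249). eme-1, a subunit of a DNA repair nuclease, had 3948 and 16 reads (50.4-fold), and psf-2, a subunit of the GINS complex of DNA replication, had 2145 and 7 reads (62.6-fold). C53H9.3, which has no assigned symbol, had 6310 and 21 reads (61.4-fold). W10G11.2, K08D12.8 and the F-box gene fbxc-52 had 711, 555 and 492 reads on OP50 and 0 on PY79. With a floor of 3 reads put in for PY79 they were 48.4-fold, 37.8-fold and 33.5-fold lower. Their intervals start at 39.3-fold, 30.6-fold and 27.2-fold. The rest were the small GTPase gene rab-19, Y11D7A.10, B0304.2, F42A9.6 and the noncoding RNA T05E11.9. All 15 fell in edgeR, 14 were called lower at day 13 too, and 6 overlap an exon of another gene. These genes were likewise chosen by the day 4 reads that edgeR uses.

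Genes commonly used as references for expression were among those called. tbb-2, a beta tubulin, had 26514 and 925 reads (5.86-fold lower, 5.49 to 6.26), though another gene overlaps it on the same strand. The iron-sulfur scaffold gene iscu-1 had 135 and 96 reads (3.48-fold higher, 2.65 to 4.55). Of 6 such genes 2 were higher and 2 lower (33.3% each, beside 25.9% and 25.2% of all genes), and the sign of their median, -0.02, changed with the scaling.

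Finally, the day 4 calls were set beside day 13, where worms on the same diets were older. At day 13, 1908 of 8028 genes were higher on PY79 (23.8%) and 2011 lower (25.0%). Of the genes higher at day 4 and tested at day 13, 1205 of 2003 were higher again (60.2%), 784 met no call and 14 were lower. Of those lower at day 4, 1326 of 1977 were lower again (67.1%), 577 met no call and 74 were higher. The diet ratios of the 2 days correlated across the 4741 genes that reached 10 reads in all 4 libraries (Pearson 0.758, Spearman 0.759), where genes are not independent replicates. In the edgeR fit 1334 of 9032 genes rose on PY79 (14.8%) and 1538 fell (17.0%). These include 1233 of the genes higher at day 4 and 1383 of those lower.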

How the data were processed

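Poly(A) RNA of whole worms was measured in 4 libraries, 1 for each diet and day. The authors deposited raw read counts per transcript (24775 transcript lines), aligned with Bowtie 0.12.7 per the submitters' processing notes. For the genome build, annotation, counting program and strand setting the sources used here give no entry. Of these lines 2 name no gene and hold 0 reads. Gene symbols, lengths and exon overlaps came from Ensembl release 115, which matched 16760 genes.

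Library sizes were 28650595 reads (OP50 day 4), 4838114 (PY79 day 4), 28552961 (OP50 day 13) and 4469802 (PY79 day 13). Counts were scaled by TMM over the 4 libraries. A call needed a 2-fold ratio and an exact 95% interval that excluded 1. Log2 ratios carry 1 read added in proportion to library size, and genes at 0 reads were given a bound from a floor of 3 reads. No p-value was computed from 1 library a group. The additive model of diet and age was fitted with edgeR's quasi-likelihood test (glmQLFit) over all 4 libraries with Benjamini-Hochberg adjustment at 0.05. It leaves 1 residual degree of freedom, its prior degrees of freedom were infinite and its common dispersion was 0.138, so p-values rest on a spread shared by all genes. The scripts were tested on simulated data.

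Named genes were the 15 in each direction with the largest interval bound nearest to 1 among called genes, members of 55 gene lists (foremost those with most reads and the largest bounds), and the 10 genes with most reads in each day 4 library. Genes and lists were chosen with earlier results of these data known. Alternatives were other scalings, other read minimums, a 4-fold limit, a prior of 5, summed transcripts, thinned reads, DESeq2, and removal of the trend over level (running median of 201 genes, at least 2 CPM). The software was R 4.3.3, edgeR 4.0.16, DESeq2 1.42.0, Python 3.11.15, pandas 2.3.3, numpy 2.4.6, scipy 1.17.1 and matplotlib 3.10.9.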

Additional observations from a re-analysis of the deposited data

Results flagged for a closer look

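Among 1118 list members and genes named by rule that were tested at day 4, 357 were called at both days. Of these 8 were called in opposite directions at day 4 and day 13. Over all genes higher at day 4, 1205 were higher and 14 lower at day 13. Over those lower at day 4, 1326 were lower and 74 higher. Opposite calls were thus not more frequent among the listed genes. The difference between the days was not tested, since each day has 1 library for each diet. The saposin-like gene spp-5 had a log2 ratio of PY79 over OP50 of -2.18 at day 4 (33244 and 1502 reads) and 2.27 at day 13 (154 and 207 reads), and spp-12 had -2.30 (103 and 4 reads) and 5.50 (2 and 44 reads). The yolk protein gene vit-3 had -1.23 (26741 and 2337 reads) and 3.53 (19 and 65 reads). The collagen gene col-183 had -2.65 and 1.61, and col-48 had 1.20 and -1.07. The remaining 3 were dod-3, a gene downstream of daf-16 (-1.29 and 1.03), thn-2, a thaumatin-like gene of the defence response (-1.18 and 1.01), and C14C6.5 (1.04 and -1.04).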

How the results depend on the processing

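The share of called genes that were higher was 50.7%. It was 59.5% with total reads, 46.0% with DESeq2 size factors, 53.4% with TMM on the day 4 libraries, 73.9% without the top 3% of genes, 59.8% with at least 10 reads in both libraries, 55.6% with no minimum, 47.5% with summed transcripts and 48.9% with OP50 reads thinned to the PY79 depth. The median log2 ratio of -0.13 became 0.14, -0.27 and 0.60 under total reads, DESeq2 and the scaling without the top 3%, and 0.37, -0.25 and 0.10 with 10 reads in both libraries, no minimum and thinning. The sign of the median gene thus depends on the scaling and the minimum, and the cause was not tested. Higher genes numbered 1055 at a 4-fold limit and 1263 with the level trend removed, and 1774 to 3247 otherwise. Lower genes numbered 1095 and 1253 under the same 2 alternatives, 1147 without the top 3% and 1308 with 10 reads in both. The share with the same call at day 13 was 68.6% with total reads against 63.6%. In the additive fit 484 genes fell with total reads, against 1538, and 517 rose by DESeq2, against 1334. None of the 99 named genes reversed under the alternatives run. Neither the scalings, which move each log2 ratio by at most 0.73, nor the level trend can turn a called gene into the opposite call. The count of reversals was thus fixed in advance. By contrast, 11 of 55 list medians changed sign without the top 3%, over the same members. With the trend removed 18 of 55 changed sign, but those medians cover only members with a mean of at least 2 CPM. The removal of the trend and the change of members cannot be told apart in these 18. The trend removal was chosen after the data had been seen. No paired analysis was possible because the labels give no replicate number and each group holds 1 library. The additive fit already compares the diets within each day, and no library could be left out of a group of 1. Depth limits the PY79 side, where 465 tested genes had 0 reads.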

Other observations

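Detoxification, hormone-like and other secreted gene families outside the comparisons above were divided at day 4. Among all genes 25.9% were higher and 25.2% lower. Cytochrome P450 genes had 6 higher and 1 lower of 13 (46.2% and 7.7%, median log2 ratio 0.57). With the level trend taken out 3 of 4 were higher and 0 lower. Among them cyp-14A5 had 43 and 49 reads (log2 2.43). UDP-glucuronosyltransferases had 5 higher and 1 lower of 11 (45.5% and 9.1%), and 0 higher and 1 lower of 2 with the trend taken out. Glutathione genes had 8 higher and 5 lower of 18 (44.4% and 27.8%), and 2 higher and 2 lower of 8 with the trend taken out. gcs-1, the first enzyme of glutathione synthesis, had 68 and 68 reads (log2 2.26), whereas the glutathione transferase gst-39 had 357 reads and 1 read, a ratio of 73.0 with an interval of 13.0 to 2890. Transthyretin-like proteins, a large family of secreted nematode proteins, had 12 higher and 5 lower of 31 (median 0.84). With the level trend taken out 8 of 23 were higher and 5 lower, and the median was -0.10. Insulin pathway targets had 1 higher and 8 lower of 12 (median -1.37), but 2 higher and 2 lower of 11 with the level trend taken out (median -0.39) and 2 higher and 3 lower without the top 3% of genes in the scaling. The counts were 2 higher and 7 lower of 14 for fungus-induced peptides, and 1 higher and 4 lower of 7 for metal handling genes (2 higher and 1 lower without the top 3%). Nuclear hormone receptors, of which 30 of 186 had enough reads, had 6 higher and 2 lower members and a median of 0.11 that turned negative with DESeq2 size factors.

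Proteasome genes had 8 higher and 11 lower of 32 (25.0% and 34.4%, median 0.23), not far from the 25.9% and 25.2% of all genes. Their core subunits pas-1 and pas-2 stood at log2 ratios of 2.28 (75 and 76 reads) and -3.88 (888 and 12 reads). Translation factors had 8 higher and 10 lower of 27 (29.6% and 37.0%). Enzymes of the TCA and glyoxylate cycles had 10 higher and 8 lower of 28 (35.7% and 28.6%). Amino acid breakdown had 8 higher and 3 lower of 19 (42.1% and 15.8%), and 4 higher and 2 lower of 9 with the trend taken out.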
